A study of Mus musculus with 10 samples.

Results

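The 10 genes described here are immediate early genes, of 20972 genes named on the array: the zinc finger transcription factors Egr1, Egr2 and Egr3, the orphan nuclear receptors Nr4a1, Nr4a2 and Nr4a3, and Dusp1, Ier2, Ier3 and Btg2. They were taken by gene name, as the probes whose RefSeq accession belongs to one of them, and not by their values. Expression was measured on 10 one-colour Agilent arrays in CD45.2+ LSK cells (Lin-, Sca-1+, c-Kit+), the bone marrow gate of blood stem cells and early progenitors, from transplanted C57BL/6 mice. KO cells carried Cre-Ert;Ezh2fl/fl, in which tamoxifen activates the Cre and deletes Ezh2, the H3K27 methyltransferase of Polycomb repressive complex 2. WT cells carried Cre-Ert alone, and both genotypes were given tamoxifen after transplantation, per the design text. At 9-12 months after transplantation there were 2 KO arrays with the disease label MDS (myelodysplastic syndrome), 3 with MDS/MPN (overlap with myeloproliferative neoplasm), 1 not determined, 1 mixed from several diseases and 1 WT array without disease. At 3 months there was 1 KO and 1 WT array, both without disease.

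The disease label of MDS/MPN replicate 1 adds TC, the source label of replicate 3 adds CMMoL, and the title of the undetermined array adds 2nd. The sources used here do not explain TC or 2nd, and do not say how many mice an array holds. The 6 KO arrays at 9-12 months with a title of their own are called the 6 separate KO arrays below. The mixed KO array may hold RNA of the same mice and was kept apart. The labels do not name the promoter that drives the Cre. P-values measure the spread between arrays, which may be partly technical.

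Slide 1 held both arrays labelled 3 months and slide 2 held the other 8, so time and slide cannot be told apart. On slide 2, line 1 held the WT, mixed and MDS arrays and line 2 held the MDS/MPN and undetermined arrays, so disease label and line cannot be told apart either. The deposited table of processed values disagreed with the scanner files in 4 columns: the labels 3 months and 9-12 months were exchanged for WT and for KO. Each column matched 1 scanner file with an SD of the log2 ratio of at most 0.000164, against at least 0.498 for any other file. Samples are named here by the labels of their scanner files. The 75th percentile intensity ran from 78.7 to 301.7, and 32.5% to 47.5% of probes were well above background, both highest on MDS/MPN replicate 2, with 0 saturated probes on any array. Of 10 markers listed for the gated cells, 8 were well above background on all 10 arrays, among them Kit, Ly6a (Sca-1), Cd34, Flt3 and Meis1. Slamf1 was so on 8 arrays and Mecom on 3. The Ezh2 probe read 2.13 to 3.35 on the 7 KO arrays other than the mixed one, against 2.63 on the WT array at 9-12 months and 2.14 on the WT array at 3 months. Its KO minus WT difference at 9-12 months was -0.15 ± 0.52 (SE, limma adjusted p = 1). The sources used here do not place the probe relative to the deleted exons, so these values do not check the deletion.

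Immediate early genes are transcribed within minutes of a stimulus without new protein synthesis, through factors already bound at their promoters, such as serum response factor at the CArG box and CREB at the cyclic AMP response element. Egr and Nr4a proteins then act on later genes, while products such as Dusp1 and Btg2 feed back on signalling and cell division. In blood stem cells Egr1 and the Nr4a receptors are known for restraining division, and the same genes are also known to respond to handling and cell isolation.

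Promoters of Egr2, Nr4a1, Dusp1 and Btg2 are shown as background. Their part in the levels on the arrays was not tested. Sequences are from RefSeq (GRCm38.p6), each from 250 bases before to 50 bases after the transcript start. Promoters were searched for 7 of the 10 members, all but Egr1, Egr3 and Ier2. They are the Egr2 promoter at chr10:67537619-67537918 (plus strand, 1 of 5 starts listed), the Nr4a1 promoter at chr15:101266596-101266895 (plus strand), the Dusp1 promoter at chr17:26508423-26508722 (minus strand) and the Btg2 promoter at chr1:134079106-134079405 (minus strand). All are written 5′ to 3′ in the direction of transcription. Capitals mark the cyclic AMP response element TGACGTCA, its core TGACG on either strand (CGTCA on the other), and in Egr2 also the CArG box.
Egr2 promoter: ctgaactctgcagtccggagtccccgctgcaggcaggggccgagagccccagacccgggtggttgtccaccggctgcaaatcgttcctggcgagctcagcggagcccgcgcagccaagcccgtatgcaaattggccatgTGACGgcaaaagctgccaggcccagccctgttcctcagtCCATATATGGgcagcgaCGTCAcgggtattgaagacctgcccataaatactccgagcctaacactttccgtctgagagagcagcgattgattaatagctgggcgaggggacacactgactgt
Nr4a1 promoter: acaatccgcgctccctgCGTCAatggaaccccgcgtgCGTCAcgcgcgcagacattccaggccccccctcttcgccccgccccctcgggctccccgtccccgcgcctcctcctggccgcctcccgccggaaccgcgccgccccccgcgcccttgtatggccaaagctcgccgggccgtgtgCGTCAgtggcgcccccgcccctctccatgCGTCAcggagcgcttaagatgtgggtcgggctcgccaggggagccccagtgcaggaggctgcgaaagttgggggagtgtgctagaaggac
Dusp1 promoter: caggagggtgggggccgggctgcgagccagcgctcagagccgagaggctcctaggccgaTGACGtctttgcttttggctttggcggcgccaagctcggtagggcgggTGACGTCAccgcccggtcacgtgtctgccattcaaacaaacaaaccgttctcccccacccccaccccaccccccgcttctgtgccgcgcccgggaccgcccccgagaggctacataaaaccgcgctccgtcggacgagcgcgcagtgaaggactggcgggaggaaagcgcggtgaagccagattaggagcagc
Btg2 promoter: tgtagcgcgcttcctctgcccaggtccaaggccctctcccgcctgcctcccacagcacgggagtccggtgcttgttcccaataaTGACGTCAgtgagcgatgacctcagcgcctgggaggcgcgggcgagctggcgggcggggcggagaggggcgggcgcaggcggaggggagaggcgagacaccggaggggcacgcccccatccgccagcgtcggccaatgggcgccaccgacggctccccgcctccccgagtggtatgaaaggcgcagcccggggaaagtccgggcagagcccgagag

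The TGACG core was present at 1 or more listed starts of 6 of the 7 members, all but Ier3. In Egr2 it was present at 3 of 5 starts. Counted per promoter, 20.8% of 32851 promoters of the same length hold it, a share not directly comparable with a count over members that may have several starts. Nr4a1 held 4 cores, starting at -233, -213, -69 and -40 from the transcript start. Dusp1 held the full TGACGTCA at -143 and Btg2 at -166, each of which contains 2 overlapping cores, and 1.79% of all promoters hold the full element. Egr2 held the CArG box at -72 and the core at -111 and -55, and 1.63% of all promoters hold a CArG box. TATAAA was found in the promoter of Nr4a2 (13.6% of all promoters). Neither the Egr site GCGTGGGCG (0.612% of all promoters) nor the Nr4a site AAAGGTCA (1.51%) occurred in these 7 windows on either strand. These are matches of letters, not measured binding.

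All levels are log2 intensities relative to the 75th percentile of the array, so 0 is the signal of a probe at that percentile and each unit is a doubling. A level belongs to its probe and is not compared between genes. Well above background is the call of the scanner software. Of the 10 members, 6 (Egr1, Nr4a1, Dusp1, Ier2, Ier3 and Btg2) were well above background on all 10 arrays, Nr4a2 was on 8, Egr2 on 3 and Nr4a3 on 1. Egr3 was well above background on 0 of 10 arrays. As the RNA comes from a sorted population, fewer cells expressing a gene and less RNA per cell cannot be told apart.

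Egr1, an activator that is often used as a reporter of recent stimulation, read 1.73 and 2.11 on the MDS arrays, -0.19, 5.52 and 0.03 on the MDS/MPN arrays, -1.06 on the undetermined array and 4.37 on the mixed array, against 4.12 on the WT array at 9-12 months. At 3 months it read 6.74 in KO and 7.11 in WT. Of the 6 separate KO arrays, 5 were below the WT array of their slide and MDS/MPN replicate 2 was above it, so the groups overlapped. The highest of the 6 was 95.5-fold above the lowest.

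Egr2, a close relative of Egr1, was well above background on 3 arrays: MDS/MPN replicate 2 at -0.64, the 3-month KO array at 0.22 and the 3-month WT array at 1.09. On the other 7 arrays it read -4.65 to -2.90 and was not well above background. MDS/MPN replicate 2 was at least 3.03-fold above the mean of the other 5 separate KO arrays, where a dim array counts with its dimmest probe that was well above background. The level of Egr2 in WT cells at 9-12 months was at least 10.8-fold lower than in WT cells at 3 months by the same rule.

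Nr4a1 (Nur77), an orphan receptor induced by strong signals such as antigen receptor ligation, read 1.32 and 1.55 on the MDS arrays, -0.24, 7.62 and 0.40 on the MDS/MPN arrays, 0.18 on the undetermined array and 3.88 on the mixed array, against 2.62 on the WT array at 9-12 months. At 3 months it read 7.03 in KO and 9.02 in WT. Again 5 of the 6 separate KO arrays lay below WT and MDS/MPN replicate 2 lay far above it. Nr4a1 had the largest SD over the 6 separate KO arrays (2.93) of the 14295 features that were well above background on all 10 arrays, and its highest array was 232-fold above its lowest. Egr1 (SD 2.37) ranked 8 and Dusp1 (SD 1.80) ranked 31, against a median SD of 0.49 over these features.

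Nr4a2 (Nurr1), another receptor of the family, read -1.27 and -2.26 on the MDS arrays, -2.08, 2.97 and -2.50 on the MDS/MPN arrays, -1.42 on the undetermined array and -0.67 on the mixed array, against -0.07 on the WT array at 9-12 months. The values of MDS/MPN replicates 1 and 3 were not well above background. At 3 months it read -0.13 in KO and 2.28 in WT. Its highest array was thus MDS/MPN replicate 2, above both WT arrays. The other probe of the gene, well above background on 3 arrays, was also highest there (0.76). Nr4a3 (Nor1) read -2.57 on MDS/MPN replicate 2, where it was well above background, and -4.73 to -3.63 on the other 5 separate KO arrays. No fold is given for Nr4a3, since its bound was under 1.

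Dusp1, a phosphatase that inactivates MAP kinases, read 2.64 and 2.18 on the MDS arrays, 0.05, 5.38 and 1.47 on the MDS/MPN arrays, 1.37 on the undetermined array and 5.96 on the mixed array, against 6.08 on the WT array at 9-12 months. At 3 months it read 7.55 in KO and 6.30 in WT. It was the only member for which all 6 separate KO arrays lay below the WT array of their slide, and the only detected member that was highest on the 3-month KO array by more than 1 log2 unit over the WT array there.

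Ier2, a nuclear protein induced by growth factors, ranged over the 6 separate KO arrays from 0.81 to 2.88 with a median of 1.23, and read 2.62 on the mixed array, against 2.45 on the WT array. Ier3, linked to cell survival, ranged from 0.14 to 3.44 with a median of 1.43 and read 3.34 on the mixed array, against 3.40 in WT. Btg2, an antiproliferative adaptor of mRNA deadenylation, ranged from 0.23 to 3.59 with a median of 0.99 and read 3.68 on the mixed array, against 3.33 in WT. For all 3 genes the highest of the 6 was MDS/MPN replicate 2, which lay 0.43, 0.04 and 0.27 above WT, and the other 5 lay below WT. At 3 months Ier2 read 3.52 in KO and 4.53 in WT, Ier3 4.87 in KO and 4.70 in WT, and Btg2 5.12 in KO and 5.60 in WT.

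**Figure D1:**
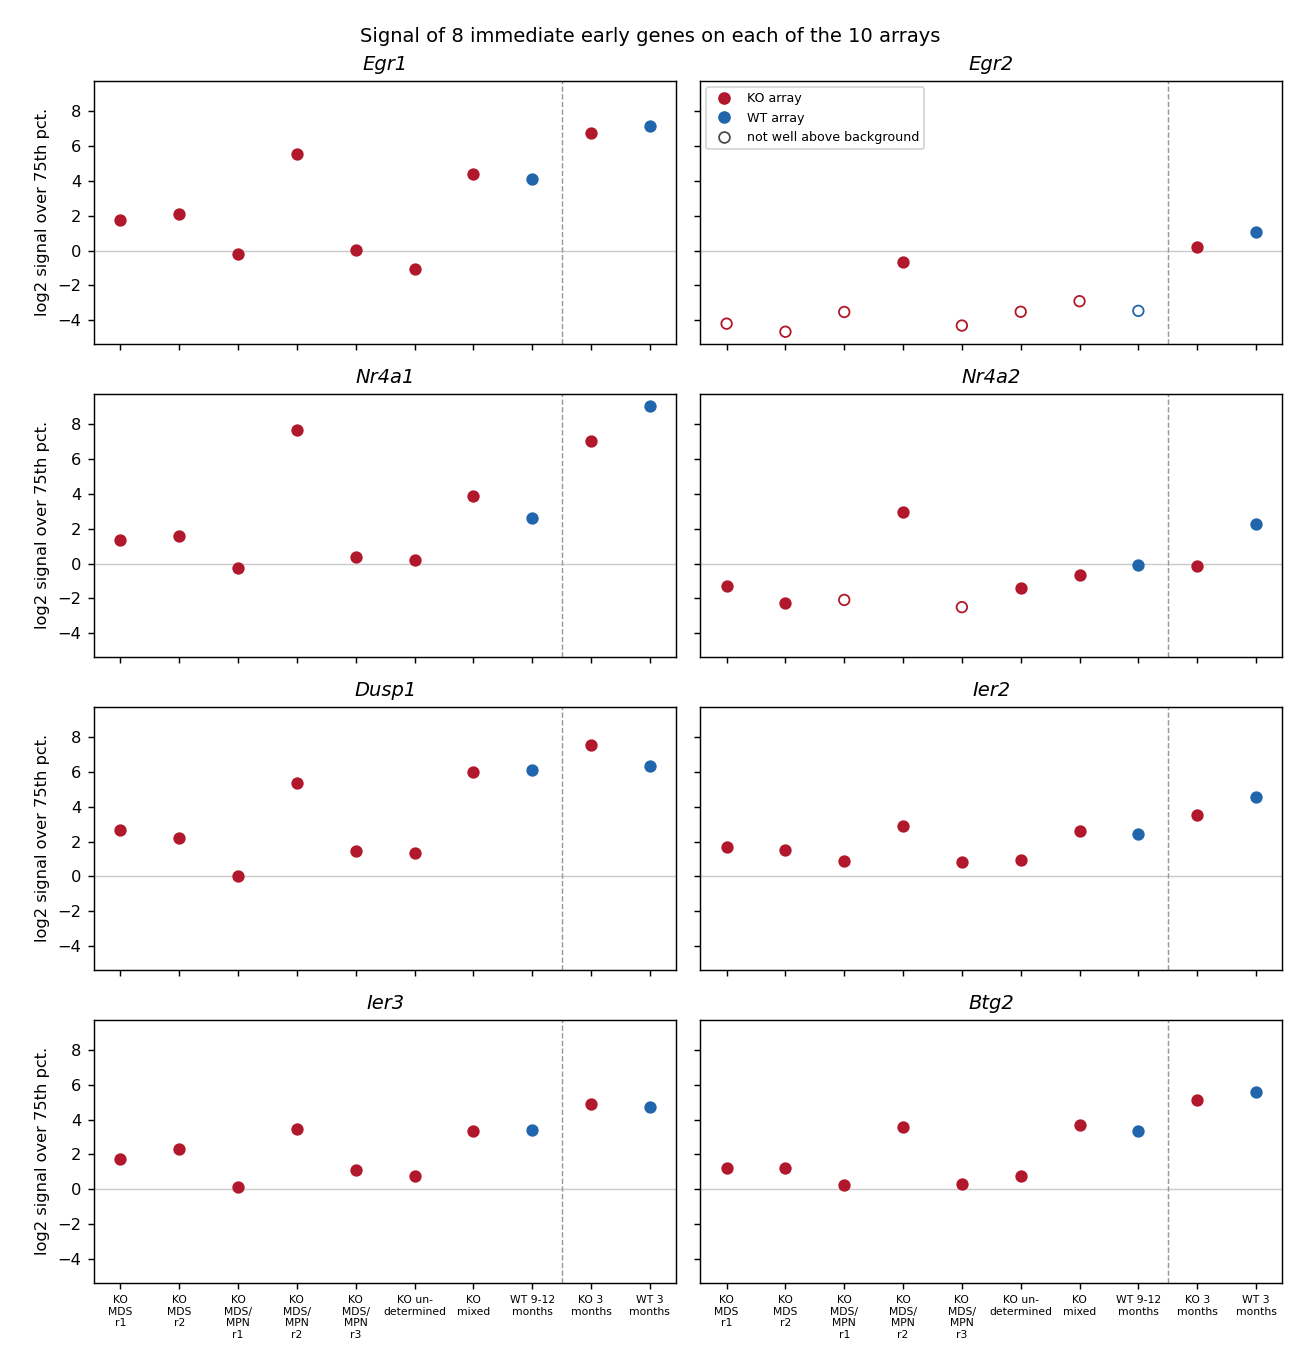
Signal of 8 members (y axis, log2 intensity over the 75th percentile of the array) on each of the 10 arrays (x axis), KO in red and WT in blue, with open circles where the probe was not well above background and a dashed line between slide 2 (left) and slide 1 (right). In each panel MDS/MPN replicate 2 stands above the other 5 separate KO arrays, as for Nr4a1 with 7.62 against 1.55 at most.

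The first comparison asked whether immediate early genes differed between KO and WT LSK cells at 9-12 months. The mean of the 6 separate KO arrays was lower than the WT array for each of the 7 members tested, and 0 of the 7 passed limma, against 0.587% of 19593 features (115, of which 114 were lower in KO). The largest difference was that of Dusp1, -3.90 ± 1.51 (SE over 6 KO arrays and 1 WT array), with an adjusted p of 0.822 and an unadjusted one of 0.0306 from limma. Egr1 differed by -2.77 ± 1.97, Btg2 by -2.11 ± 1.08, Ier3 by -1.82 ± 1.03, Nr4a2 by -1.02 ± 1.71, Ier2 by -1.001 ± 0.74 and Nr4a1 by -0.82 ± 2.42, each with a limma adjusted p of 1. The WT side is 1 array, taken to vary as the KO arrays do. A feature well above background on that array alone could enter the test. The features called lower in KO may therefore include some that were bright only in WT.

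Counting arrays, all 6 separate KO arrays lay below WT for 1 of the 7 members (Dusp1), against 13.9% of all features. At least 5 of the 6 lay below WT for 7 of 7, against 26.3% of all features, where the limit of 5 was set after these values were seen and the members share the same arrays. The same 5 arrays lay below WT for every member. The median of the 6 members detected on all arrays was 1.70 and 1.83 on the MDS arrays, 0.0975, 4.49 and 0.60 on the MDS/MPN arrays and 0.75 on the undetermined array, against 3.36 on the WT array.

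A single array added the most to the spread, though less for Ier3 (SE 0.75 without it, against 1.03) than for Nr4a1 (0.69, against 2.42). Without MDS/MPN replicate 2, which was singled out by its values and also had the highest 75th percentile intensity (301.7), the difference became -4.54 ± 0.86 for Dusp1 (limma adjusted p = 0.0719) and -2.58 ± 0.49 for Btg2 (adjusted p = 0.0734). Nr4a1 stood at -1.98 ± 0.69 (adjusted p = 0.562) and Nr4a2 at -1.84 ± 0.53 (adjusted p = 0.329), Egr1, Ier2 and Ier3 had adjusted p between these, and 0 of 7 passed. For Nr4a1, leaving out MDS/MPN replicate 1, MDS/MPN replicate 3 or the undetermined array instead gave -0.41, -0.54 and -0.50. The part of that array's brighter signal was not tested. Within line 1 of the slide, the 2 MDS arrays against WT gave differences from -3.67 ± 0.35 for Dusp1 (limma adjusted p = 0.125) to -0.85 ± 0.28 for Ier2 (adjusted p = 0.656), all 7 negative and none past the threshold. In line 2 no WT array was present.

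**Figure D2:**
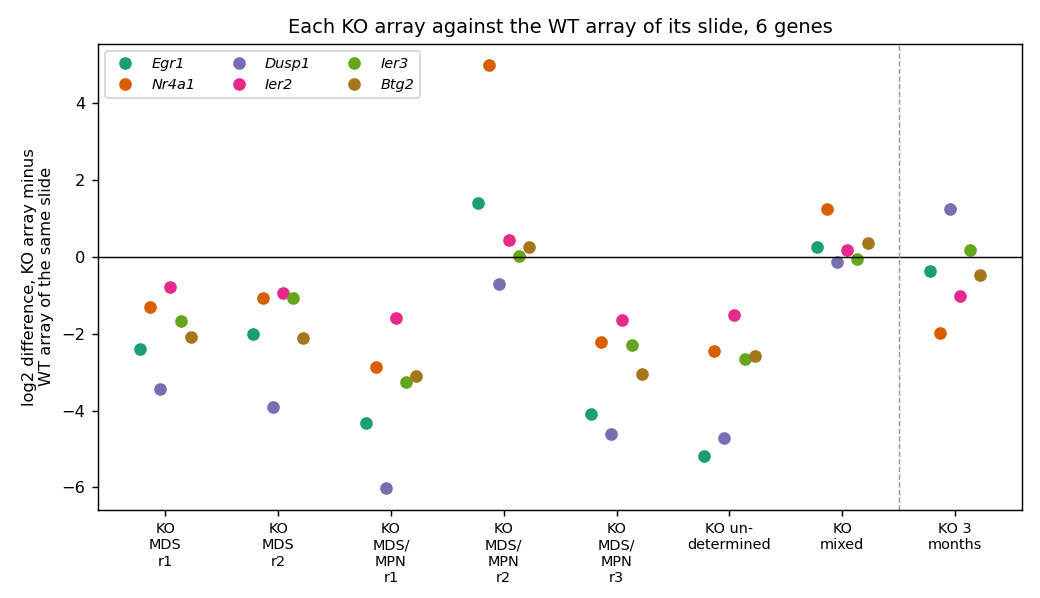
Difference in log2 signal between each KO array (x axis) and the WT array of its slide (y axis) for the 6 members well above background on all arrays, 1 colour per gene, with a dashed line between slide 2 (left) and slide 1 (right). On 5 of the 6 separate KO arrays all 6 genes lie below 0, while on MDS/MPN replicate 2 only Dusp1 does (-0.70).

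The summed signal of erythroid markers moved with this pattern, but not every marker did. The summed signal of the 14 erythroid markers on the array, in multiples of the 75th percentile, was 430 and 619 on the MDS arrays, 436, 86.7 and 311 on the MDS/MPN arrays, 605 on the undetermined array and 95.3 on the mixed array, against 91.7 on the WT array at 9-12 months. At 3 months it was 129 in KO and 155 in WT. Much of the WT sum there was Car2, at 6.83 (log2) in WT and 5.41 in KO. By the median of the 9 markers well above background on all arrays, KO was the higher at 3 months (2.05, against 0.56 in WT). The 5 arrays with the highest erythroid sums were the same 5 that were low for the members, and between 10 and 14 of the 14 markers were well above background on each array. The alpha-globin Hba-a2 read 6.40 to 8.09 on these 5 arrays, against 1.06 on MDS/MPN replicate 2 and 0.63 on the WT array at 9-12 months (globin copies are near-identical and may share signal). On the 3-month KO array, where the members were high, Klf1 (1.91), Epor (2.05) and Car1 (4.20) read above both MDS arrays. The MDS arrays read 0.13 and 0.03 for Klf1, 1.43 and 1.72 for Epor, and 3.35 and 3.89 for Car1. All globin markers on that 3-month array read below both MDS arrays, Hba-a2 at 3.41.

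Sums of the 8 mast cell and basophil markers were 112 and 23.9 on the MDS arrays, 97.1, 18.1 and 69.1 on the MDS/MPN arrays, 47.5 on the undetermined array and 12.4 on the mixed array, against 14.4 on the WT array. At 3 months they were 38.2 in KO and 4.52 in WT. MDS/MPN replicate 2 was the lowest of the 6 separate KO arrays, but the 3-month KO array, on which the members were high, stood above MDS replicate 2. The gate marker sum was lower on the 4 arrays of line 2, MDS/MPN replicate 2 included (239 to 279.5), than on the 6 other arrays (435 to 533), and so did not follow the members. Markers of other blood lineages, T cells apart, were also mostly higher in the mean of the 6 separate KO arrays than on the WT array. The fitted difference was positive for 10 of 10 neutrophil markers (median 2.58, log2), 7 of 8 monocyte, macrophage and dendritic markers (0.99) and 3 of 3 B cell markers tested (3.42). It was positive for 12 of 13 erythroid (2.34) and 7 of 7 mast cell markers (1.96), but for only 2 of 5 T cell markers (-0.0975). Of all these genes 0 passed limma. The neutrophil sum was 1661 and 1066 on the MDS arrays, 2884, 1343 and 4094 on the MDS/MPN arrays, 4452 on the undetermined array and 830.0 on the mixed array, against 1101 on the WT array, and at 3 months 2794 in KO and 327 in WT. The stromal and endothelial sum was lowest on MDS/MPN replicate 2 (16.9), against 43.9 to 111 on the other 9 arrays. The part of any of these cells in the levels of the members was not tested. The T cell marker Cd8a and the stromal and endothelial markers Col1a1 and Cdh5 were well above background on 0 of 10 arrays.

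**Figure D3:**
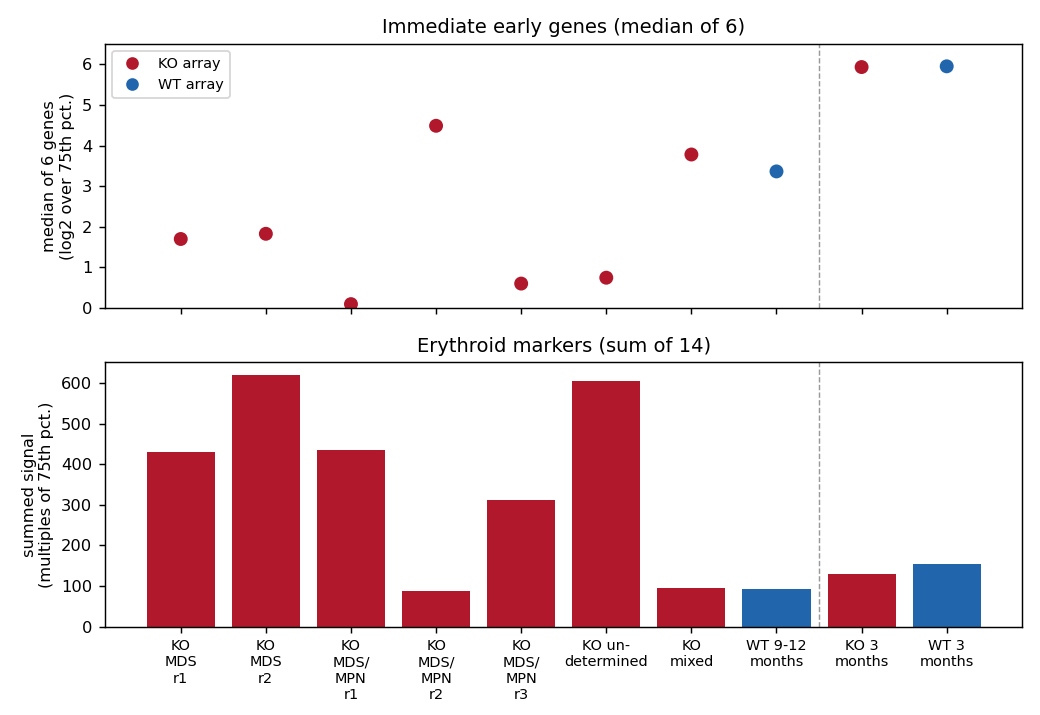
Median level of the 6 members (top, log2 over the 75th percentile) and summed signal of 14 erythroid markers (bottom, multiples of the 75th percentile) on each array, KO in red and WT in blue, with a dashed line between slide 2 (left) and slide 1 (right). The 5 arrays with a median of at most 1.83 are those with an erythroid sum of at least 311.

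The second comparison asked whether the members differed between KO mice with MDS/MPN and with MDS. Of the 7 members tested 0 passed limma, against 0% of 20720 features. At an unadjusted p under 0.05, 308 features were higher and 614 lower in MDS/MPN, and limma with trend and robust settings also called 0. Egr1 averaged 1.78 ± 3.24 in MDS/MPN (SD, n = 3) and 1.92 ± 0.27 in MDS (SD, n = 2), a difference of -0.14 ± 1.77 (SE, limma adjusted p = 1) whose sign turned with quantile normalization, as did that of Dusp1 (-0.11). The largest differences were those of Nr4a2 (1.23 ± 1.68, adjusted p = 0.995) and Nr4a1 (1.16 ± 2.37, adjusted p = 1). The 2 MDS arrays lay within 1 log2 unit of each other for all 7 members, whereas the MDS/MPN group held both the highest and the lowest of the 5 arrays for each. Without MDS/MPN replicate 2 every difference was negative, from -2.003 ± 0.23 for Egr1 (limma adjusted p = 0.117) to -0.53 ± 0.43 for Nr4a2 (adjusted p = 0.441), and none passed.

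With both slides in 1 fit and the slide as a block, the fitted difference between the 7 KO arrays and the 2 WT arrays was negative for all 8 members tested, and 0 passed limma, against 0% of 22316 features (502 higher and 810 lower at an unadjusted p under 0.05, and 0 called with trend and robust settings). The values were -2.002 ± 1.39 for Dusp1, -1.88 ± 1.53 for Egr1, -1.53 ± 1.31 for Nr4a2, -1.51 ± 0.85 for Btg2, -1.25 ± 1.84 for Nr4a1, -1.08 ± 0.84 for Ier3, -1.01 ± 0.56 for Ier2 and -0.33 ± 0.95 for Egr2 (SE). The lowest limma adjusted p was 0.926, for Ier2. Egr2 passed the filter only through the WT arrays, where it was well above background at 3 months alone. Its value is thus set largely against background. Without a filter the 2 members left out had positive differences, Egr3 at 0.03 and Nr4a3 at 0.34, mostly between background signals. The shared negative sign therefore holds for the members that passed the filter. For Dusp1 and Ier3 the direction rested on the WT array of slide 2: without it they stood at 1.25 and 0.18. Egr1 (-0.37) and Btg2 (-0.48) stayed negative but smaller in size. Nr4a2 (-2.41), Nr4a1 (-1.99), Ier2 (-1.02) and Egr2 (-0.87) were as negative as before or more so. Without that array the median of the 6 members was -0.42 in place of -1.38. The fit also depends on the time labels, since these decide which KO array is the mixed one left out: by those in the table of processed values Dusp1 stood at -3.36, Egr1 at -2.34, Nr4a1 at -0.52 and Egr2 at 0.0681.

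The third comparison was of KO with WT at 3 months, with 1 array each and no replicate check. Of the 8 members well above background on either array, Nr4a2 (5.31-fold), Nr4a1 (3.97-fold) and Ier2 (2.03-fold) were at least 2-fold lower in KO, 3 of 8 against 12.1% of 22418 features. Dusp1 was 2.38-fold higher in KO, 1 of 8 against 12.8%. Egr1 (-0.37), Egr2 (-0.87), Btg2 (-0.48) and Ier3 (0.18, all log2) differed by less than 2-fold. The median over the 6 members was -0.42, where the median of all features was 0.23. With quantile normalization the medians were -0.88 and 0.06, Dusp1 stood at 0.70, under 2-fold, and Ier3 turned to -0.26, while the same 3 genes were at least 2-fold lower in KO.

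For Dusp1 the KO minus WT difference at 9-12 months (-3.90) was thus of the other sign than at 3 months (1.25). Tested as a difference of differences it was -5.15 ± 2.48 (SE), with an adjusted p of 1 from limma. None of the 8 members passed this test, against 0% of 23287 features (556 higher and 604 lower at an unadjusted p under 0.05, and 0 called with trend and robust settings).

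The mixed KO array stood close to the WT array of its slide. Of 7 members, 0 were at least 2-fold lower, against 4.35% of 19579 features, and 1 was at least 2-fold higher, Nr4a1 by 2.38-fold, against 4.51%. The other 5 of the 6 members detected on all arrays lay within -0.12 and 0.36 of WT. The mixed array carries the disease labels of MDS and MDS/MPN, yet for Dusp1 (5.96) and Btg2 (3.68) it read higher than each of the 6 separate KO arrays, and for Egr1, Nr4a1, Nr4a2, Ier2 and Ier3 higher than all of them but MDS/MPN replicate 2.

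Between the 2 WT arrays, 7 of 8 members were at least 2-fold lower at 9-12 months than at 3 months, against 14.1% of 22038 features, with 1 array each. Nr4a1 was 84.3-fold, Egr1 7.93-fold, Nr4a2 5.11-fold, Btg2 4.82-fold, Ier2 4.25-fold and Ier3 2.46-fold lower, besides the bound for Egr2 above. Dusp1 was the exception, with a difference of -0.22 (log2). These arrays lie on different slides, and by the labels in the table of processed values the direction turns: the WT array with the higher levels is then the one at 9-12 months.

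The related genes were counted whole, at 9-12 months and with both slides, and 0 genes of any list passed limma in either fit. The AP-1 subunits, partners of Egr proteins in the immediate early response, had a median of -0.97 over 8 tested at 9-12 months (2 positive, 6 negative) and of -0.70 over 9 on both slides (9 negative), against medians of -0.01 and 0.03 over all features. Fos read 3.13 and 2.04 on the MDS arrays, -0.9997, 6.71 and 0.24 on the MDS/MPN arrays and 0.72 on the undetermined array, against 6.75 on the WT array, so that, as for Dusp1, all 6 lay below WT. Its difference on both slides was -2.62 ± 1.93 and that of Atf3, a stress-induced factor well above background on 5 arrays, -2.30 ± 2.22 (limma adjusted p = 0.957 and 0.966), and Jund stood at -0.24.

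The other 36 immediate early genes were mixed, with a median of -0.12 over 30 tested at 9-12 months (18 negative) and of -0.26 over 35 on both slides (21 negative). On both slides Zfp36, a protein that destabilises cytokine mRNAs, stood at -2.20 ± 1.65 and Ccn1, a matricellular protein, at -2.14 ± 0.80 (well above background on 2 arrays only and high on 1 of them, the 3-month WT array at 2.49), while Myc stood at 1.03 ± 0.39 (limma adjusted p = 0.957, 0.716 and 0.716). Myc was above WT on all 6 separate KO arrays at 9-12 months (3.44 to 4.63, against 3.32). Not all rapidly induced genes therefore read low on these arrays.

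The upstream regulators and cofactors had a median of 0.06 over 15 tested at 9-12 months and 0.0034 over 16 on both slides, with Srf, the serum response factor, at 0.82 ± 0.40, and Nab2, a corepressor of Egr proteins, at -0.96 ± 0.55 and Spry1, an inhibitor of receptor signalling, at -0.70 ± 0.52 on both slides. The other Dusp phosphatases had a median of -0.53 over 10 on both slides (7 negative), from -2.26 ± 1.16 for Dusp4 and -1.45 ± 0.96 for Dusp5 to 1.94 ± 0.73 for Dusp9, and of -0.50 over 7 at 9-12 months (5 negative). The other Btg and Tob genes had a median of 0.01 over 4 at 9-12 months (2 positive, 2 negative) and of -0.31 over 4 on both slides (4 negative), with Tob1 at -1.38 ± 0.74, Btg3 at -0.36 ± 0.46 and Tob2 at -0.09 ± 0.43.

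Heat shock genes, which respond to cell stress, had a median of 0.30 over 13 tested at 9-12 months (10 positive) and of 0.38 over 13 on both slides (9 positive). Hspa1a, the inducible Hsp70, was well above background on 6 of 10 arrays and may share signal with its near-identical copy Hspa1b. It read -4.87 and -4.91 on the MDS arrays, -3.56, 4.41 and -4.41 on the MDS/MPN arrays and -1.19 on the undetermined array, against 1.105 on the WT array at 9-12 months, and was highest on the 3-month KO array (4.72). Like the members, it stood high on MDS/MPN replicate 2. Hspb1 and Bag3 also had their highest separate KO array there (1.87 and 2.16), with differences on both slides of -0.51 ± 1.48 and 0.99 ± 0.36.

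Likeness of pattern was measured as the root mean square (RMS) difference of log2 values over the 10 arrays, each gene centred on its own mean, among 11562 genes well above background on at least 5 arrays. Closest to Egr1 were Rgs1 (RMS difference 0.77), Klf6 (0.82), Zfp36 (0.84), Ccl4 (0.92), Tnf (1.01), Ccl3 (1.07), Fos (1.09) and Ppp1r15a (1.14), where the median gene stood at 2.91. Closest to the mean of the 7 members well above background on at least 5 arrays were Klf6 (0.42), Ppp1r15a (0.45), Rgs1 (0.61), Jun (0.62), Dusp5 (0.65), Tnf (0.68), Rgs2 (0.70) and Ccl3 (0.71), where the median gene stood at 2.15. Of the 8 genes closest to the mean, Klf6, Ppp1r15a, Rgs1, Rgs2, Jun and Dusp5 belong to the lists above, and Tnf and Ccl3 encode a cytokine and a chemokine. Among the members themselves, Ier3 and Btg2 (0.56) and Ier2 and Ier3 (0.57) were closest to each other, and Nr4a1 and Ier2 were the farthest apart (2.13). These values describe the 10 arrays, which the genes share.

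**Figure D4:**
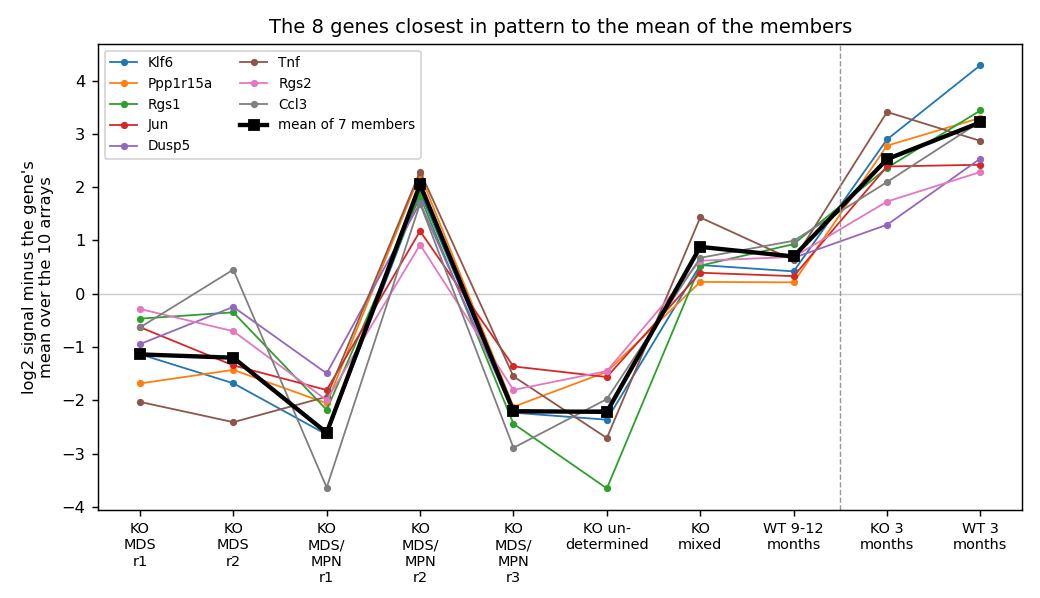
Log2 signal minus the gene's mean over the 10 arrays (y axis) for the 8 genes closest in pattern to the mean of 7 members (black squares), by array (x axis), with a dashed line between slide 2 (left) and slide 1 (right). The 8 were chosen for likeness over these same arrays. All 8 read higher on MDS/MPN replicate 2 than on the other 5 separate KO arrays. All but Dusp5 read higher on both slide 1 arrays than on any array of slide 2.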

How the data were processed

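Spot intensities in the deposited scanner files were made with Feature Extraction 10.7.1.1, per the file headers (9.1 in the submitters' processing notes): background-subtracted, detrended and not scaled between arrays. The value table deposited by the authors holds a ratio, the same intensity averaged per probe over the array's 75th percentile, as found by setting it against the scanner files. It served for the check of labels. Control and outlier spots were dropped, replicate spots averaged, and log2 intensities scaled to each array's 75th percentile. A gene took the value of its brightest probe. Of 55681 probes, 29123 had a RefSeq accession and 27656 matched 1 symbol of RefSeq GRCm38.p6. The headers name build mm9 for the array, whose coordinates were not used.

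To be tested, a feature had to be well above background on 50% or more of the arrays in either group. Tests were limma 3.58.1 fits (R 4.3.3) over all such features, with Benjamini-Hochberg adjustment at 0.05, checked on simulated data. Groups of 1 array were taken to vary as the others. Pairs of single arrays are given as values. Tables and figures were made with Python 3.11.15. The number of arrays limits the precision. Related genes were named by a rule: from each list the 2 most negative and the 1 most positive KO minus WT differences on both slides, and the 8 genes most alike to Egr1 and to the mean of the members. The members, lists and tests were chosen with earlier results of these data known. Alternatives were quantile normalization, normexp background correction, other filters, the median probe, another variance model, leaving out arrays, the mixed array, the value table's time labels, the line of the slide, both WT arrays together and no slide block.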

Additional observations from a re-analysis of the deposited data

Results flagged for a closer look

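Among the 6 separate KO arrays at 9-12 months, MDS/MPN replicate 2 stood apart from the other 5 by Dixon's criterion (the gap to the next array over the whole range, above the critical value for 6 samples) for Nr4a1, Nr4a2 and Btg2, and by the same ratio for Egr2, whose other 5 values are not measured levels. Nr4a1 read 7.62 there, against 1.55 on the next array (ratio 0.773). Nr4a2 read 2.97, against -1.27 (ratio 0.775), with the 2 of the 6 arrays that were not well above background included in its range. Egr2 read -0.64, against -3.50 on the next array (ratio 0.714), but it was well above background only on MDS/MPN replicate 2, so the gap and the range are set against background and the ratio is no evidence of its own. Btg2 read 3.59, against 1.24 (ratio 0.702). Egr1 (0.518), Dusp1 (0.514), Ier2 (0.583), Ier3 (0.339) and Nr4a3 (0.492) had ratios below the critical value, each with the same array on top. Chance flags about 1 in 20 groups, and these genes share the same arrays, so they are not independent.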

How the results depend on the processing

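No member passed limma under any alternative run (438 differences, lowest adjusted p = 0.0719). Of these, 412 kept their sign and 26 did not, with 0 sign changes in KO against WT at 9-12 months. Features called in that comparison (115) came to 247 with quantile normalization, 0 with normexp, 0 with features well above background on every array, 50 with no filter, 0 with trend and robust settings, 182 with the mixed array added, 0 within line 1 of the slide, 0 with both WT arrays as 1 group and 0 to 215 when 1 KO array was left out. The median of the 6 members there (-1.96) moved to -4.25 with the time labels of the value table and -3.63 with both WT arrays. On both slides, features called (0) came to 1 with quantile normalization, 153 with the value table's labels and 0 to 117 with 1 array left out, and the members' median (-1.38) to -2.96 with no slide block. For the difference between the KO effects at the later and the earlier time, features called (0) came to 184 with quantile normalization and 2 with the value table's labels, under which the members' median (-1.81) moved to -4.37. In these shifts of the members' median, KO arrays of slide 2 were set wholly or partly against the WT array of slide 1. Genotype and slide cannot be told apart there. For the changes in features called the cause was not tested. Signs turned as follows. In MDS/MPN against MDS, Egr1 gave 0.0213 with quantile normalization and 0.25 with normexp, and Dusp1 0.0009 and 0.0824. With 1 array left out, that comparison ranged from -2.003 to 0.85 for Egr1, -1.35 to 2.58 for Nr4a1, -0.53 to 2.21 for Nr4a2, -1.65 to 1.01 for Dusp1, -0.76 to 0.28 for Ier2, -1.40 to 0.25 for Ier3 and -0.97 to 0.71 for Btg2. On both slides, Dusp1 ranged from -3.90 to 1.25 and Ier3 from -1.82 to 0.18, both positive without the WT array of slide 2, and Egr2 gave 0.0681 with the value table's labels. In the difference of effects, these labels gave -5.11 for Egr2, -8.47 for Nr4a1, -2.78 for Nr4a2 and -3.26 for Ier2, and Ier2 ranged from -0.27 to 0.15 with 1 array left out. No paired analysis was possible because the labels number no replicates across groups. Signal over background limited Egr2, Egr3 and Nr4a3.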
